A study of Mus musculus with 24 samples.

Results

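The genes described here are 10 transcriptional regulators of oxidative and lipid metabolism. They are the PGC-1 coactivators Ppargc1a and Ppargc1b, the PPAR receptors Ppara, Ppard and Pparg, the oestrogen-related receptors Esrra, Esrrb and Esrrg, and the mitochondrial biogenesis factors Tfam and Nrf1. They were chosen by name out of 18193 genes on the array, with earlier results of these data known. Where a gene had several probe sets, the one that was brightest on average across the 24 arrays stood for it, and the others served as a check.

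RNA from the left ventricle of the heart and from lung of CD-1 mice of 20 weeks was measured on Affymetrix arrays, with 3 arrays in each of 8 groups. In dnCREB mice a dominant negative CREB1, which blocks the cAMP-responsive transcription factor of that name, is expressed from an alpha myosin heavy chain promoter specific to cardiomyocytes. The transgene is thus directed to heart muscle. Lung samples held heart muscle transcripts as well, as given beside the lung results. The other mice were wild type (WT). Mice of both genotypes were given either particulate matter of 1.9 µm at 20 mg/kg (PM) or phosphate-buffered saline (PBS). The labels of all PM samples, heart ones included, speak of a lung harvest at 36 h, and those of PBS samples give no time. Each tissue thus had dnCREB PM, dnCREB PBS, WT PM and WT PBS groups. The series text gives 3 animals per group and does not say whether a lung and a heart of one number came from the same animal.

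PGC-1 proteins do not bind DNA themselves but are recruited by nuclear receptors and other factors, whose transcriptional activity they raise. With PPARα they drive genes of fatty acid uptake and oxidation, and with the oestrogen-related receptors (ERRs) they drive genes of the tricarboxylic acid (TCA) cycle and the respiratory chain, which the beating heart depends on for most of its ATP. Ppargc1a is itself a known CREB target in liver and muscle, through a cAMP response element close to its start site. In lung, PPARγ is best known from alveolar macrophages, which need it to mature, and from adipocytes around the airways.

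Because Ppargc1a is a CREB target, the promoters of the regulators were searched for CREB sites, and for sites of ERRs, PPARs and NRF1. Windows of genes called lower in dnCREB PBS hearts are shown. RefSeq promoter windows (assembly GRCm38.p6, from 250 bases before to 50 after each start) were available for 9 of the 10 genes, all but Ppargc1b. The 250 bases before the start are shown for Ppargc1a (chr5:51567726-51567975, minus strand), for Ppara (chr15:85735526-85735775, plus strand) and for 1 of the 2 Esrrb windows (chr12:86360867-86361116, plus strand). Letters read 5′ to 3′ along the gene, and capitals mark the matches named below the sequences.
Ppargc1a: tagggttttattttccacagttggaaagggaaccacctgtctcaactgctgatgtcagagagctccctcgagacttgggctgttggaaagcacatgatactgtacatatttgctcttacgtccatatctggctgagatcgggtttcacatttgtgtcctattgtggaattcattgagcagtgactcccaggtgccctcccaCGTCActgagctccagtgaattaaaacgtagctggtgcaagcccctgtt
Ppara: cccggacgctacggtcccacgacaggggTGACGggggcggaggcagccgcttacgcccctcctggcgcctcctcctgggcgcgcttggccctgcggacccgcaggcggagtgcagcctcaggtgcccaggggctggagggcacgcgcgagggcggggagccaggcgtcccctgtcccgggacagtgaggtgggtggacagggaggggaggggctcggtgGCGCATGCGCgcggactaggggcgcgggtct
Esrrb: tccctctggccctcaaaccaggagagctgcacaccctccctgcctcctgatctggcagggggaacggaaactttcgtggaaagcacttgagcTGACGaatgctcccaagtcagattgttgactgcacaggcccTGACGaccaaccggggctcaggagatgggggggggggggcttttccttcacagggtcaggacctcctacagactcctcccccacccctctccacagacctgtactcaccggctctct
The Ppargc1a window held TGACG, the short form of the cAMP response element, on the opposite strand at -49 to -45 from the start. It was also found in Ppara (-222 to -218), in this Esrrb window at 2 places (-158 to -154 and -117 to -113) and in Ppard, across the start itself. The other windows of the 9 genes did not hold it, among them the other Esrrb window, all 3 of Pparg, all 4 of Esrrg and both of Nrf1. TGACG on either strand was present in 20.8% of all 32851 windows, a share counted per window and not per gene. The full element TGACGTCA, which contains TGACG, was in 1.79% of all windows, AAGGTCA, the single site read by ERRs, in 4.72%, and the direct repeat read by PPARs, with 1 base between its parts, in 0.0396%. No window of the 9 genes held any of these 3. For Ppargc1a only 1 window was available, inside a gene that spans chr5:51454249-52115853. Whether this window is the one with the known cAMP response element was not checked. Lack of the full element in it therefore says nothing about the rest of the gene. The NRF1 site, the longer match in capitals, was in 0.971% of windows and in Ppara at -31 to -22. These letters are a description of the windows, and binding was not measured.

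Values are log2 expression as deposited, 1 unit being a factor of 2 on the linear scale. The tissues appear to have been normalised apart, with array medians of 3.25 to 3.37 in heart and 4.09 to 4.19 in lung, so levels were compared only within a tissue. Genes with at least 3 arrays of a tissue over log2 4 were tested with limma and called at a Benjamini-Hochberg adjusted p under 0.05 over all genes tested. This left 9962 genes in heart and 11600 in lung. In heart 9 of the 10 regulators were tested, Nrf1 staying between 2.52 and 2.68 on all 12 arrays (the highest value of any of its 4 probe sets was 4.61, in WT PBS replicate 2). In lung 9 were tested, Esrrb staying between 2.19 and 2.29; Esrrg exceeded 4 on only 3 lung arrays.

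Of the 5 Creb1 probe sets tested in heart, the one with the highest mean was not higher in dnCREB hearts. It averaged 8.46 in dnCREB PBS and 8.82 in WT PBS hearts (adjusted p = 0.494), and 8.56 in dnCREB PM and 9.28 in WT PM hearts (adjusted p = 0.168). The probe set that differed most, picked for that reason and so given as a description, read 10.18, 12.00 and 9.18 in dnCREB PBS hearts and 2.75, 2.79 and 3.29 in WT PBS hearts. It read 9.05, 10.68 and 11.44 in dnCREB PM hearts and 2.51, 2.86 and 2.57 in WT PM hearts. In lung its highest value on any array was 4.29, so the genotype of lung samples was not checked by it. The 8 lung epithelium markers were all measured in lung and 0 of them passed the low-value limit in heart, as the tissue labels say. The labels call all mice male, but Xist, the female X-inactivation RNA, was high in all 6 WT hearts and in dnCREB PM replicate 3, and the Y-linked Eif2s3y in the other 5 dnCREB hearts. Genotype and sex class therefore nearly coincide in heart, so heart results are also given with Xist class in the fit, which rests on dnCREB PM replicate 3 alone. In lung, Eif2s3y was high in all 3 WT PBS arrays and in WT PM replicate 2, Xist in the other WT PM arrays, in dnCREB PBS replicate 2 and in all 3 dnCREB PM arrays, and neither in dnCREB PBS replicates 1 and 3. The mean of the skeletal muscle markers was raised in 6 of the 12 lungs, all 3 of WT PM among them. It was 4.02 in WT PM replicate 3 and 7.34 to 7.68 in the other raised lungs. Brown fat transcripts in dnCREB PBS replicate 1, and heart muscle transcripts in the lungs, are given beside the lung results.

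In the heart without particles, dnCREB mice had less Ppargc1a, Ppara and Esrrb transcript than WT mice. These were 3 of the 9 regulators tested, all lower and 0 higher, where 5.6% of all genes tested were called lower and 13.2% higher. Under PM the genotypes differed in 5 of the 9, Ppara, Esrra, Esrrb, Esrrg and Tfam, again all lower and 0 higher, with 9.13% of all genes called lower and 11.4% higher. Ppara was 2.58-fold lower under PBS and 2.54-fold lower under PM. Ppard and Pparg did not pass in either. Where groups are said below not to overlap, in heart or lung, how many of all genes separate in that way was not counted.

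Ppargc1a, which links cold, exercise and fasting signals to mitochondrial biogenesis, read 10.52, 9.99 and 6.28 in dnCREB PBS hearts, against 11.99, 11.98 and 11.41 in WT PBS hearts. The groups did not overlap, and dnCREB PBS replicate 3 lay far below its 2 companions. The difference was -2.86 ± 0.86 (SE; limma adjusted p = 0.0423). Under PM the gene read 11.26, 10.44 and 10.57 in dnCREB hearts and 11.69, 11.57 and 11.56 in WT hearts. Again each dnCREB array lay below each WT array, but the difference of -0.85 ± 0.86 did not pass (adjusted p = 0.525).

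The low value of replicate 3 was seen on that probe set alone. The 4 other Ppargc1a probe sets read 10.05, 10.21, 10.51 and 10.13 on the same array, near the values of the other dnCREB PBS arrays. They differed by -0.92, -0.92, -1.29 and -1.14 under PBS, of which the last 2 passed with p adjusted over all probe sets (0.00984 and 0.00514; the first 2 had 0.0596 and 0.0586). Under PM they differed by -1.31, -1.18, -1.04 and -1.25, and all 4 passed (adjusted p between 0.00326 and 0.0244). With dnCREB PBS replicate 3 left out, the probe set with the highest mean gave -1.53 under PBS (adjusted p = 0.0087) and passed under PM too (adjusted p = 0.0381). The size of -2.86 thus rests on 1 array and 1 probe set. The call of this probe set under PBS was also lost when any 1 of the 6 WT arrays was left out, when dnCREB PM replicate 2 or 3 was (adjusted p between 0.0531 and 0.109), and with Xist class in the fit (-3.14, adjusted p = 0.366).

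Ppargc1b, the sister coactivator with a single probe set, read 10.57, 10.29 and 9.70 in dnCREB PBS hearts and 10.39, 10.60 and 10.34 in WT PBS hearts. Under PM it read 10.05, 10.49 and 10.30 in dnCREB hearts and 11.03, 10.99 and 10.19 in WT hearts. The groups overlapped in both treatments, and the differences were -0.26 ± 0.26 in PBS hearts (adjusted p = 0.524) and -0.46 ± 0.26 in PM hearts (adjusted p = 0.252).

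**Figure D1:**
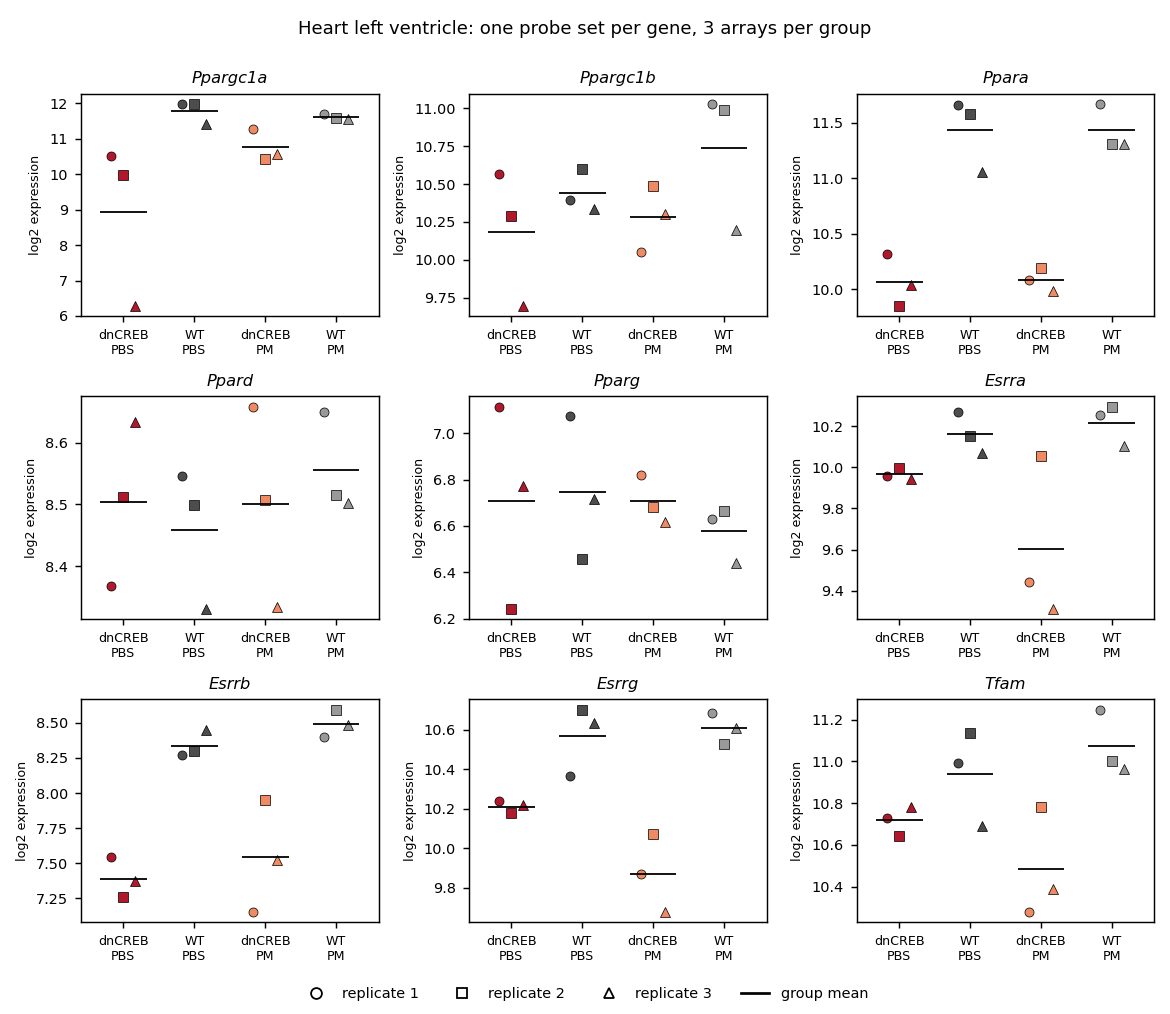
Log2 expression of the 9 tested regulators in heart (y axes; each panel has its own range) by group on the x axis, with 1 point per array, its shape giving the replicate, and a line at the group mean. All 6 dnCREB arrays lie below all 6 WT arrays for Ppargc1a, Ppara, Esrra, Esrrb and Esrrg, and Ppargc1a of dnCREB PBS replicate 3 stands apart at 6.28. How many of all genes separate in this way was not counted.

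Ppara, the fatty acid receptor that is the main PPAR of heart muscle, had the smallest p of the regulators in both treatments. It read 10.32, 9.85 and 10.04 in dnCREB PBS hearts, against 11.66, 11.58 and 11.06 in WT PBS hearts. Under PM it read 10.08, 10.19 and 9.98 in dnCREB hearts, against 11.67, 11.31 and 11.31 in WT hearts. The 6 dnCREB arrays all lay below the 6 WT arrays, with a gap between them. The differences were -1.37 ± 0.19 (adjusted p = 0.00105) and -1.35 ± 0.19 (adjusted p = 0.00111). Its other 2 probe sets differed by -1.19 and -1.51 under PBS and by -1.33 and -1.13 under PM, and all passed. With Xist class in the fit Ppara still passed, at -1.52 (adjusted p = 0.0477) and -1.45 (adjusted p = 0.0142). The dnCREB PM heart with high Xist, like the WT hearts, had 9.98, the second lowest value of the 12 hearts.

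Ppard, a more widely expressed fatty acid receptor, did not follow. It read 8.37, 8.51 and 8.63 in dnCREB PBS hearts and 8.55, 8.50 and 8.33 in WT PBS hearts, which overlapped. Its difference was 0.05 ± 0.12 in PBS hearts (adjusted p = 0.822) and -0.06 ± 0.12 in PM hearts (adjusted p = 0.782). Pparg, the receptor that drives fat cell formation, differed by -0.04 ± 0.22 (adjusted p = 0.924) and 0.13 ± 0.22 (adjusted p = 0.72), with overlapping groups.

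Esrrb, best known for its role in embryonic stem cells and placenta, read 7.54, 7.26 and 7.37 in dnCREB PBS hearts, against 8.27, 8.30 and 8.45 in WT PBS hearts. Under PM it read 7.15, 7.95 and 7.53 in dnCREB hearts, against 8.40, 8.59 and 8.48 in WT hearts. No array of one genotype reached the other. The differences were -0.95 ± 0.18 in both treatments (PBS, adjusted p = 0.00534; PM, adjusted p = 0.0054). A further probe set, near 4.9 on most heart arrays, differed by only -0.09 and 0.05 and did not pass, and the third, which stayed under the low-value limit, was not tested. With Xist class in the fit Esrrb kept its size, -0.97 in both, but did not pass (adjusted p = 0.166 and 0.052).

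Esrrg, the ERR linked to the oxidative metabolism of heart and slow muscle, read 10.24, 10.18 and 10.22 in dnCREB PBS hearts, against 10.36, 10.70 and 10.63 in WT PBS hearts. The groups did not overlap, but the difference of -0.36 ± 0.13 did not pass (adjusted p = 0.0777). Under PM it read 9.87, 10.07 and 9.68 in dnCREB hearts, against 10.68, 10.53 and 10.61 in WT hearts. Here the difference was -0.73 ± 0.13 (adjusted p = 0.00353), 1.66-fold lower, and with Xist class in the fit it was -0.93 (adjusted p = 0.0121). Its 2 dimmer probe sets differed by -0.62 and -0.26 under PBS and by -0.27 and -1.36 under PM, and only the last passed (adjusted p = 0.047).

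Esrra, the ERR that together with PGC-1α raises respiratory chain genes, read 9.96, 9.997 and 9.94 in dnCREB PBS hearts, against 10.27, 10.15 and 10.07 in WT PBS hearts. Under PM it read 9.44, 10.06 and 9.31 in dnCREB hearts, against 10.26, 10.30 and 10.10 in WT hearts. The groups did not overlap in either treatment. The difference did not pass under PBS (-0.20 ± 0.17, adjusted p = 0.447) and passed under PM (-0.61 ± 0.17, adjusted p = 0.0301). A second probe set gave -0.10 and -0.57, of which the value under PM passed (adjusted p = 0.0288). The call under PM was lost without any 1 of the WT PM arrays or without dnCREB PM replicate 1 or 3 (largest adjusted p = 0.0984, at -0.47). With Xist class in the fit Esrra passed under PM (-0.91, adjusted p = 0.0318).

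Tfam, which packages and transcribes mitochondrial DNA, read 10.28, 10.78 and 10.39 in dnCREB PM hearts, against 11.25, 11.004 and 10.96 in WT PM hearts. The difference was -0.59 ± 0.16 (adjusted p = 0.0265), and its groups did not overlap. Under PBS the groups overlapped and the difference was -0.22 ± 0.16 (adjusted p = 0.358). The second Tfam probe set differed by -0.07 and -0.27 and did not pass. The Tfam call was lost without WT PM replicate 1 or 2, without dnCREB PM replicate 1 or 3 (largest adjusted p = 0.0871), and with Xist class in the fit (-0.68, adjusted p = 0.102).

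With Xist class in the fit, Ppara was the single regulator called under PBS, and Ppara, Esrra and Esrrg were called under PM. The share of all genes called in that fit is not set beside these calls. Whichever 1 of the 12 hearts was left out, Ppara and Esrrb passed under PBS, and Ppara, Esrrb and Esrrg passed under PM.

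**Figure D2:**
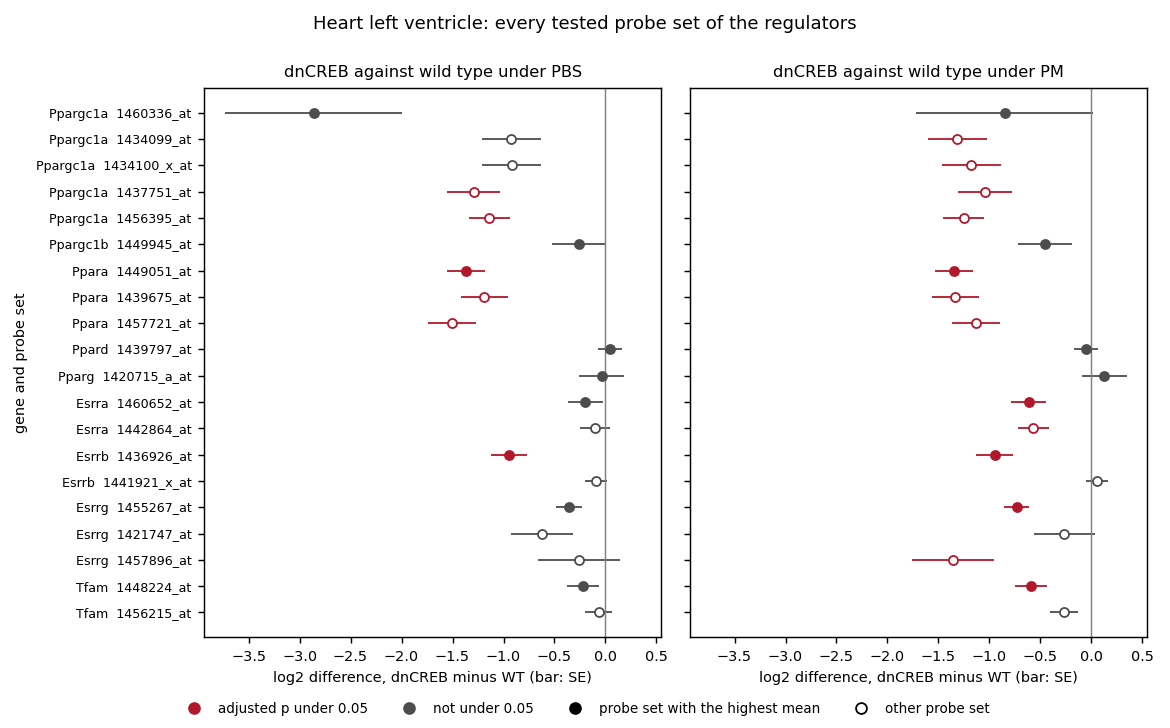
Log2 difference between dnCREB and WT hearts (x axis, bars: SE) for every tested probe set of the regulators (y axis), under PBS on the left and PM on the right. Filled points are the probe set with the highest mean, open points the others, and red marks an adjusted p under 0.05 over all probe sets, where the filled Ppargc1a point has 0.0522 under PBS. All 5 Ppargc1a and all 3 Ppara probe sets lie below 0 in both panels.

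PM itself did not change these regulators detectably in the heart. In WT hearts 0 of 9 were called, where 0.01% of all genes were, and 0 had an unadjusted p under 0.05. In dnCREB hearts 0 of 9 were called, against 0% of all genes, with 1 unadjusted p under 0.05, that of Esrrg (-0.34 ± 0.13). Averaged over the genotypes 0 were called as well, and 0 had an unadjusted p under 0.05 (0% of all genes called). The interaction of genotype and PM was called for 0 of 9 regulators, with 0 unadjusted p under 0.05, against 0% of all genes. Esrra, Esrrg and Tfam, which passed only under PM, had interaction values of -0.42 ± 0.24, -0.38 ± 0.18 and -0.37 ± 0.23 (adjusted p = 0.98 each), so a difference between the treatments was not shown for them.

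The bulk arrays cannot tell fewer cells of a type from less RNA per cell. The mean of the 12 cardiomyocyte markers was lower on each dnCREB heart than on each WT heart, by a small margin. It was 15.63 to 15.76 in dnCREB PBS hearts against 15.77 to 16.03 in WT PBS hearts, with 1 of 12, Ryr2, called lower, where 5.6% of all genes were, and 15.62 to 15.76 in dnCREB PM hearts against 15.86 to 15.99 in WT PM hearts, with 3 of 12, Ryr2, Ckm and Tnni3, called lower, where 9.13% of all genes were. Of the 12 differences 9 were negative under PBS and all 12 under PM, and their median was -0.15 under PBS and -0.16 under PM. Of the 4 atrial markers, Myl7 and Sln stayed under the low-value limit in heart, and Nppa and Myl4 were tested. The mean of the 4 was 6.57 to 7.39 in dnCREB PBS hearts against 5.39 to 5.88 in WT PBS hearts, and 6.53 to 7.42 in dnCREB PM hearts against 5.75 to 5.96 in WT PM hearts. Nppa and Myl4 were called higher under PBS, with a median difference of 2.67, and Nppa alone under PM, where the median was 2.32. Fibroblast markers were called higher in dnCREB hearts, 6 of 8 in each treatment. Of all genes tested, 13.2% were called higher under PBS and 11.4% under PM. The array means of the fibroblast markers were 12.77 to 13.12 in dnCREB PBS hearts against 11.003 to 11.21 in WT PBS hearts. Under PM they were 12.07 to 13.58 in dnCREB hearts against 11.02 to 11.37 in WT hearts. Of 7 macrophage markers tested, 1 was called higher under PBS, a share close to the 13.2% of all genes. Under PM 5 were, where 11.4% of all genes were. Of the 12 skeletal muscle markers only 3 could be tested in heart, and 0 were called. Of the 6 endothelial markers 0 were called in either treatment. Their mean stood apart on dnCREB PM replicate 1, at 12.17, against 10.34 to 11.02 on the other hearts. The part of these cell types in the values of the regulators was not tested.

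The genes that these regulators act on were followed in 4 lists, each described by counts over its tested members. The PPAR target list, mainly genes of fatty acid oxidation, had 14 of 26 genes lower and 1 higher in dnCREB hearts under PBS. Of all genes tested, 5.6% were called lower and 13.2% higher there. Under PM the list had 13 lower and 2 higher, against 9.13% and 11.4% of all genes. Over the 12 omissions of 1 heart the number lower ran from 9 to 16 under PBS and from 8 to 14 under PM, the lowest being without dnCREB PBS replicate 3 under PBS and without WT PM replicate 2 or dnCREB PM replicate 3 under PM. The list medians were -0.68 and -0.65, where the medians of all genes tested were 0.09 and 0.02. Decr1, an auxiliary enzyme that degrades unsaturated fatty acids, averaged 12.15 in dnCREB PBS hearts and 13.44 in WT PBS hearts (-1.29 ± 0.18, adjusted p = 0.0012). Among PM hearts it was lower in dnCREB than in WT by 1.21. Ech1 (-1.31 and -1.34), Crat (-0.97 and -1.09), Acadvl (-0.87 and -0.82) and Mlycd, the malonyl-CoA decarboxylase (-1.26 and -1.24), were lower in dnCREB hearts under PBS and under PM. Ehhadh of peroxisomes was among the lower genes of smallest p under PBS (-1.36), and Acadm, the medium-chain acyl-CoA dehydrogenase, under PM (-0.71). Being named for PBS or PM alone does not mean that a gene did not pass in the other treatment.

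Some PPAR targets went the other way. Cpt1a, the carnitine palmitoyltransferase typical of liver, averaged 10.56 in dnCREB PBS hearts and 9.55 in WT PBS hearts (1.01 ± 0.29, adjusted p = 0.0365), and was higher by 1.24 under PM (adjusted p = 0.0144). Cidea, a lipid droplet protein, was higher under PM by 0.87 ± 0.20 (adjusted p = 0.0123).

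The list of ERR targets in the TCA cycle and respiratory chain moved in 1 direction. Under PBS 17 of 33 genes were lower and 0 higher, where 5.6% and 13.2% of all genes were. Under PM 21 were lower and 0 higher, where 9.13% and 11.4% of all genes were. All 33 differences were negative in each treatment. The list medians were -0.40 and -0.45. Sdha, the flavoprotein of succinate dehydrogenase, averaged 13.83 in dnCREB PBS hearts and 14.61 in WT PBS hearts (-0.78 ± 0.12, adjusted p = 0.0023). Ndufs1 of complex I was lower in dnCREB hearts by 0.62 under PBS and 0.68 under PM, and Suclg1 of the TCA cycle by 0.73 and 0.79. Uqcrc1 (-0.52), Fh1 (-0.69) and Ndufs3 (-0.43) were among the lower genes under PBS, and Ndufa5 (-0.73), Idh3b (-0.52) and Cox7a1 (-0.66) under PM. They too were named for smallest p, so nothing is said of the treatment not given. Under PBS only 5 of the 33 were called lower without dnCREB PBS replicate 3, the array on which Ppargc1a stood apart (median -0.31), and 5 without WT PBS replicate 2 (median -0.35). It was 10 without WT PBS replicate 3, and over all 12 omissions it ran from 5 to 19. Under PM it ran from 13, without dnCREB PM replicate 3, to 25.

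Of the genes of mitochondrial DNA expression and biogenesis, 1 of 25 was lower and 1 higher under PBS, shares below the 5.6% and 13.2% of all genes, so the list did not stand out there (median -0.05). Under PM 6 were lower and 0 higher, where 9.13% and 11.4% of all genes were, with a median of -0.42. The 6 became 10 without dnCREB PM replicate 2 and ran down to 4 over the other omissions of 1 heart. Mterf3, a mitochondrial transcription factor, was lower in dnCREB hearts in both treatments (-0.45 ± 0.10, adjusted p = 0.0128, and -0.70 ± 0.10, adjusted p = 0.00146). Under PM the mitofusin Mfn1 (-0.74), Lrpprc (-0.84), Ssbp1 (-0.48), Gabpa (-0.55) and Opa1 (-0.39) were lower in dnCREB hearts as well. Gabpb2 was higher under PBS by 0.93 ± 0.26 (adjusted p = 0.0328).

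Among 27 partners and upstream regulators, 4 were lower and 2 higher under PBS, where 5.6% and 13.2% of all genes were. The 2 higher were thus a smaller share than over all genes. Under PM 6 were lower and 0 higher, where 9.13% and 11.4% of all genes were. No omission of 1 heart kept the 6: the count ran from 2 to 5, with 2 without WT PM replicate 1 or dnCREB PM replicate 3 and 3 without WT PM replicate 2 or 3. Under PBS the number lower ran from 3 to 4 and the number higher from 0 to 2. The list medians, -0.08 and -0.15, lay close to those of all genes. Klf15, a circadian regulator of lipid and amino acid metabolism, averaged 8.72 in dnCREB PBS hearts and 10.84 in WT PBS hearts (-2.12 ± 0.40, adjusted p = 0.0055). It was not called under PM, where dnCREB hearts averaged 9.63 with an SD of 0.85. Its interaction of genotype and PM was 1.33 ± 0.57 (limma adjusted p = 0.98). Lpin1, which amplifies the action of PGC-1α with PPARα in liver, was lower in dnCREB hearts by 1.17 under PBS and 1.12 under PM. Rxrg, a heterodimer partner of the PPARs, was lower by 1.27 and 1.38, and Prkaa2, a catalytic subunit of the energy sensor AMPK, by 0.53 and 0.70. Perm1 (-0.82), Mef2a (-0.44) and the mitochondrial deacetylase Sirt3 (-0.74) were lower in dnCREB than in WT hearts under PM. Crem, a CREB family member, was higher under PBS by 1.55 ± 0.45 (adjusted p = 0.0374), as was the CREB coactivator Crtc3, by 0.36 ± 0.09 (adjusted p = 0.0228).

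**Figure D3:**
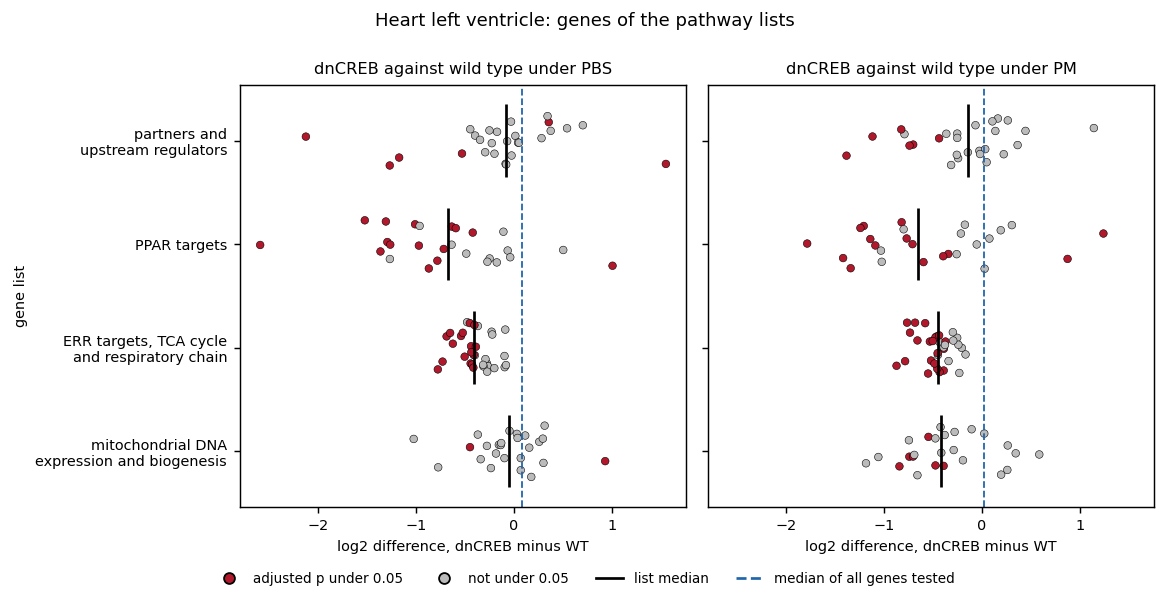
Log2 difference between dnCREB and WT hearts (x axis) for each tested gene of the 4 lists (y axis, with points spread vertically at random for visibility), under PBS on the left and PM on the right. Red points passed an adjusted p of 0.05, black lines are list medians and the dashed blue line the median of all genes; all 33 ERR targets lie below 0 in both panels.

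Xist class in the fit left fewer of these calls, as it did over all genes. Under PBS 3 of 26 PPAR targets, 1 of 33 ERR targets, 0 of 25 mitochondrial DNA genes and 0 of 27 partners were lower. Under PM 7, 7, 4 and 2 were. The share of all genes called lower in that fit is not set beside these counts, so they do not show whether a list stood out there. The list medians under PBS were -0.87 for PPAR targets and -0.42 for ERR targets, and -0.68 and -0.40 without Xist class. All dnCREB PBS hearts differ in sex class from all WT hearts. The adjusted medians thus rest on dnCREB PM replicate 3 alone and cannot separate sex class from genotype.

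The pattern of Ppara over the 12 heart arrays, each value taken relative to the WT PBS mean of its gene, was most like those of Cpeb3, Kcnh2, Decr1, Spata33 and As3mt among 9649 genes. Their root mean square distances from it were 0.18 to 0.20 log2 units, against an SD of Ppara of 0.74. Kcnh2, the channel of the rapid delayed rectifier potassium current, was lower by 1.49 under PBS and 1.56 under PM. For Ppargc1a the nearest genes, Crhr2, Abhd6, Fah, Stard10 and Npc1, were much further off, at 0.91 to 0.98, against an SD of Ppargc1a of 1.56. These distances and this SD include the low value of dnCREB PBS replicate 3, seen on the chosen Ppargc1a probe set alone. They were not computed without it.

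In the lung, particles went with more Pparg transcript in WT mice. Pparg was the 1 regulator of 9 called for PM against PBS in WT lungs, where 2.39% of all genes were called. It read 6.89, 7.66 and 7.44 in WT PM lungs, against 6.02, 5.94 and 6.24 in WT PBS lungs. The groups did not overlap, and the difference was 1.26 ± 0.26 (adjusted p = 0.0372), or 2.40-fold. The call was lost without WT PBS replicate 1 or 2, without WT PM replicate 2 or 3, and without any of 4 of the 6 dnCREB arrays, with adjusted p between 0.022 and 0.129 over all 12 omissions and differences between 1.10 and 1.48.

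In dnCREB lungs Pparg was not called for PM. It read 6.76, 6.83 and 6.66 in dnCREB PM lungs and 7.47, 6.54 and 6.58 in dnCREB PBS lungs, which overlapped (-0.11 ± 0.26, adjusted p = 0.944). In these lungs 0 of 9 regulators were called, against 0.00862% of all genes, with 2 unadjusted p under 0.05. The interaction, -1.37 ± 0.37 for Pparg (unadjusted p = 0.00359), did not pass the correction (adjusted p = 0.831). It was called for 0 of the 9, with 2 unadjusted p under 0.05, and for 0.00862% of all genes, so a difference between genotypes in the response to PM was not shown.

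Ppargc1b read 5.69, 6.09 and 5.67 in WT PM lungs, against 4.70, 4.72 and 4.68 in WT PBS lungs. The groups lay apart, but the difference of 1.12 ± 0.30 did not pass (adjusted p = 0.0672). In dnCREB lungs it differed by 0.07 ± 0.30, with overlapping groups. Ppard read 6.16, 6.99 and 7.18 in WT PM lungs and 4.89, 6.04 and 6.33 in WT PBS lungs, which overlapped (1.02 ± 0.38, adjusted p = 0.13). In dnCREB lungs it read 6.38, 6.95 and 6.13 under PM, all above the 5.44, 5.49 and 5.76 under PBS (0.92 ± 0.38, adjusted p = 0.46). Averaged over the genotypes, 0 of 9 regulators were called, against 6.76% of all genes, with 3 unadjusted p under 0.05; Ppard was nearest, at 0.97 ± 0.27 (adjusted p = 0.0524), and it passed under 6 of the other settings that keep all 12 lungs.

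In WT lungs the means of several sets of cell type markers also lay higher under PM. The mean of the 10 macrophage markers was 10.19, 10.81 and 10.20 in WT PM lungs, above the 8.48, 9.32 and 9.74 of WT PBS lungs. Marco, a scavenger receptor of alveolar macrophages, was the marker of this list that passed, at 6.48, 5.76 and 5.71 in WT PM lungs against 3.26, 3.20 and 3.21 in WT PBS lungs (9 of 10 markers higher in value). The mean of the 6 adipocyte markers on the array was 6.45, 6.28 and 5.55 in WT PM lungs and 5.03, 5.29 and 4.06 in WT PBS lungs. That of the skeletal muscle markers was 7.34, 7.38 and 4.02 in WT PM lungs, against 2.69, 2.72 and 2.66 in WT PBS lungs. The mean of the 8 fibroblast markers was 11.73, 11.42 and 11.90 in WT PM lungs, all above the 10.86, 11.22 and 11.38 of WT PBS lungs, with 0 of 8 called. WT PBS replicate 1 stood apart from the other lungs. It had the lowest mean of the macrophage markers (8.48), of the 6 endothelial markers (10.24, against 11.11 to 12.07 in the 11 others) and of the 8 lung epithelium markers (12.75, against 13.06 to 13.45). Without it the Pparg difference in WT lungs was 1.24 (adjusted p = 0.0744). With Xist class in the fit Pparg gave 1.59 (adjusted p = 0.0266). With the skeletal muscle mean in the fit it gave 1.20 (adjusted p = 0.17). Without the 5 lung arrays whose muscle mean exceeded 6 it gave 1.38 (adjusted p = 0.341), with WT PM represented by replicate 3 alone. In dnCREB lungs the macrophage mean was 9.44, 9.52 and 9.87 under PM, all above the 9.16, 9.35 and 9.24 under PBS. There 9 of 10 macrophage markers were higher in value and 0 were called. Pparg and Ppargc1b differed by -0.11 and 0.07 between these groups. Their adipocyte, skeletal muscle and fibroblast means overlapped. The part of macrophages, adipocytes and fibroblasts in the Pparg value was not tested.

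The lung with the highest Ppargc1a, Ppara and Esrrg was dnCREB PBS replicate 1. The 3 dnCREB PBS lungs read 6.49, 5.29 and 4.46 for Ppargc1a, 5.90, 5.26 and 5.20 for Ppara, and 4.93, 3.82 and 3.84 for Esrrg. In the dnCREB PM lungs Ppargc1a read 5.09, 4.84 and 4.96, in WT PM lungs 5.34, 4.97 and 5.30, and in WT PBS lungs 4.94, 5.59 and 5.13, all overlapping. The same dnCREB PBS lung had Ucp1, the uncoupling protein of brown fat, at 10.29, when no other lung exceeded 3.59, and its adipocyte mean of 9.03 was the highest of the 12. It also had the highest Myh6, at 13.66, and Nppa, at 13.83, both heart muscle transcripts. Heart muscle markers were present in the other lungs too. Over the 12 lungs the atrial mean ran from 9.21 to 12.85 and the cardiomyocyte mean from 7.64 to 10.55, both highest on this array. Whether the transgene was active in this muscle was not tested. The high Pparg of dnCREB PBS replicate 1, 7.47, set the upper end of the dnCREB PBS group. With this array left out, Pparg and Ppargc1b were called for PM against PBS in WT lungs and averaged over the genotypes.

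**Figure D4:**
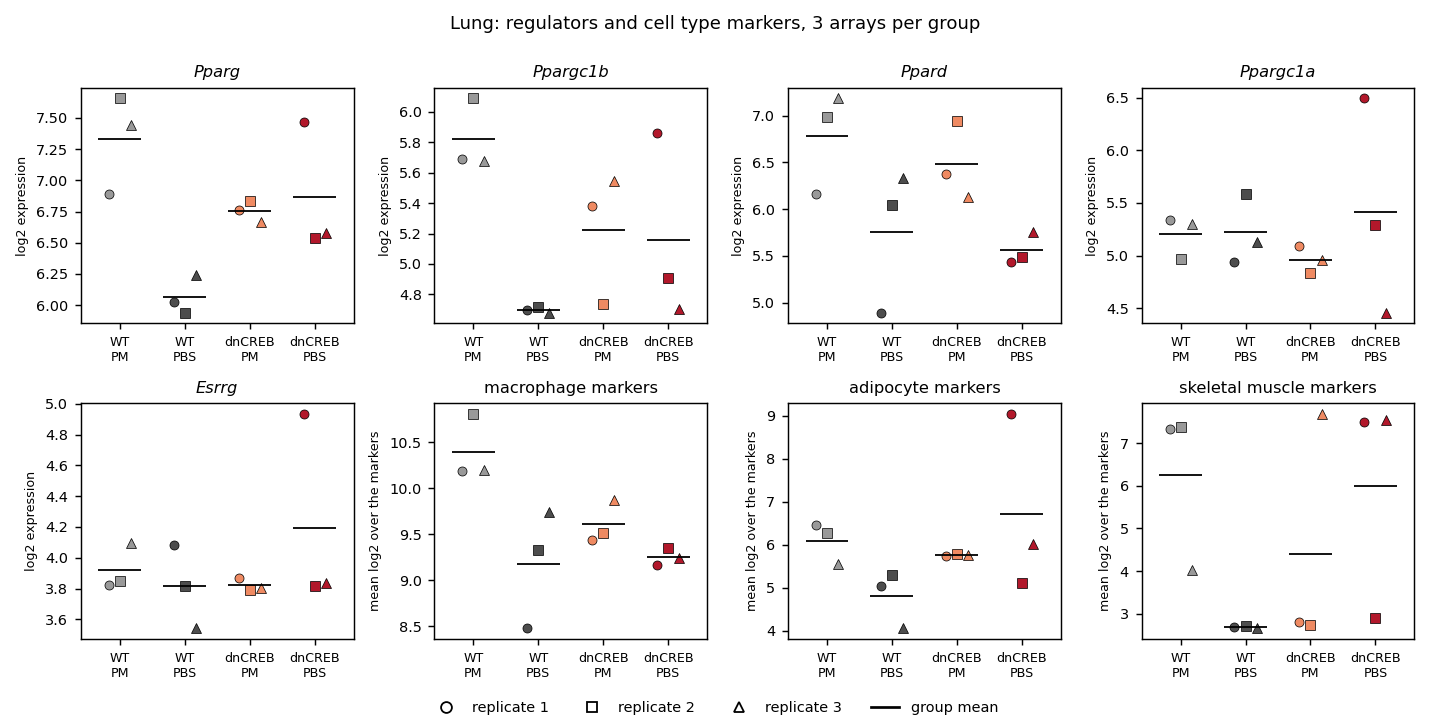
Log2 expression of 5 regulators and mean log2 of 3 sets of cell type markers (y axes; each panel has its own range) on the 12 lung arrays, by group on the x axis, with 1 point per array, its shape giving the replicate, and a line at the group mean. Pparg, Ppargc1b and the macrophage, adipocyte and skeletal muscle means are all higher in the 3 WT PM lungs than in the 3 WT PBS lungs, and dnCREB PBS replicate 1 stands highest for Ppargc1a, Esrrg and the adipocyte mean.

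The genotype of the mice, whose transgene is directed to heart muscle, did not change the regulators detectably in lung. Under PBS 0 of 9 were called, against 0.0259% of all genes, and 1, Pparg, had an unadjusted p under 0.05 (0.80 ± 0.26, adjusted p = 0.772). Under PM 0 of 9 were called, against 0% of all genes, and 0 had an unadjusted p under 0.05. Esrra lay between 6.38 and 7.27 over the 12 lungs, Tfam, the mitochondrial DNA packaging factor, between 8.31 and 9.31, and Nrf1, an activator of nuclear genes for mitochondrial proteins, between 6.07 and 6.87. For these 3 genes the largest difference in any lung comparison of 2 groups was the -0.30 of Nrf1 between dnCREB and WT under PBS.

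Of the pathway genes in lung, few passed. Averaged over the genotypes, PM went with more Cpt1a (0.65 ± 0.12, adjusted p = 0.0172) and less Cd36, a fatty acid transporter of endothelium and macrophages (-0.96 ± 0.21, adjusted p = 0.0263), which were 2 of 25 PPAR targets. Ckmt2, the mitochondrial creatine kinase of muscle, was the 1 of 33 ERR targets to pass (-1.44 ± 0.33, adjusted p = 0.0306). The CREB coactivator Crtc2 (0.57 ± 0.13, adjusted p = 0.0293), 1 of 27 partners, and the mitochondrial transcription factor Tfb2m (-0.60 ± 0.16, adjusted p = 0.0484), 1 of 28 mitochondrial DNA genes, also passed. With 6.76% of all genes called in that comparison, each of these list counts was near or below the share over all genes. In the other lung comparisons 0 genes of the 4 lists passed; the smallest p among PPAR targets were those of Cpt1a for PM in WT (0.59, adjusted p = 0.0775) and in dnCREB lungs (0.71, adjusted p = 0.239).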

How the data were processed

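RNA of 24 tissue samples was hybridised to Affymetrix arrays, 1 sample per array. The values are the authors' deposited log2 expression, made with GCRMA per the submitters' processing notes; its version and the genome build are not given in the sources used here. Of 45037 probe sets, 34945 carried 1 gene symbol, 932 several and 9160 none in the platform annotation, and only the first were used, giving 18193 genes. Array medians were 3.25 to 3.37 in heart and 4.09 to 4.19 in lung; arrays have no read depth, and their number, 3 per group, limits the precision. No 2 arrays held identical values.

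For each tissue, limma 3.58.1 in R 4.3.3 was fitted to the 4 groups of 3 arrays, over the genes with at least 3 arrays of that tissue over log2 4, with no covariate. Calls used a Benjamini-Hochberg adjusted p under 0.05 over all genes tested, and the probe set check was adjusted over all probe sets tested. No pseudocount was added, since the values were already log2. The p-values measure the spread between these arrays. Tables and figures were made with Python 3.11.15, pandas 2.3.3 and matplotlib 3.10.9. Promoter windows are RefSeq's (GRCm38.p6).

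The regulators, the lists of pathway genes and the cell type markers were chosen with earlier results of these data known. Named pathway genes are, per list, up to 6 called genes of smallest p in each direction for the genotypes in heart and up to 4 elsewhere, or, with none called, some of the 2 of smallest p; the 5 genes most like Ppargc1a and Ppara were taken by root mean square distance over the 12 heart arrays. The Creb1 probe set, Nppa, Myl4, Ryr2, Ckm, Tnni3, Myh6, Ucp1 and Marco were singled out after their values were seen. Same-numbered arrays of different groups did not deviate together (r between -0.30 and 0.31 over 18 pairs in heart, and between -0.33 and 0.33 over 18 pairs in lung), so numbers were not taken to pair samples. Alternatives were other filters, probe set choices, normalisations and fits, sex class and skeletal muscle as covariates, the replicate block, and leaving out each array.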

Additional observations from a re-analysis of the deposited data

Results flagged for a closer look

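Ppara differed between the tissues in its change with genotype, by a test of the difference itself in 1 limma fit of all 24 arrays over 12318 genes. The change in heart minus the change in lung, dnCREB against WT, was -1.73 ± 0.30 in PBS mice (adjusted p = 0.00103). In PM mice it was -1.22 ± 0.30 (adjusted p = 0.0151). It was not the only regulator or gene to pass: Esrrb did in both treatments (-0.96 ± 0.20, adjusted p = 0.00544, and -0.97 ± 0.20, adjusted p = 0.00571), with lung values between 2.19 and 2.29 that lay under the low-value limit, and so did 987 genes in PBS mice and 1004 in PM mice. In lung the Ppara differences between dnCREB and WT were 0.37 under PBS, where dnCREB PBS replicate 1 had the highest value, and -0.13 under PM. The tissues differ in their normalisation and in the sex classes of their arrays, and the part of these in the difference was not tested.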

How the results depend on the processing

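Of the 9 regulators tested in heart, the 3 called between dnCREB and WT under PBS became 1 with sex class in the fit and 2 to 3 when 1 array was left out. The 5 called under PM became 3 with only the compared groups in the fit, 3 with sex class, and 3 to 6 when 1 array was left out. For PM against PBS in WT lungs the 1 call became 0 with no filter, with only the compared groups, with the skeletal muscle score as a covariate and without the 5 arrays over 6 in that score (chosen after seeing the data); it became 3 with all 24 arrays in 1 fit, 2 with sex class, and 0 to 2 when 1 array was left out. In dnCREB lungs array weights gave 2 calls in place of 0. Averaged over genotypes, the 0 calls became 1 with a filter at log2 6, with all probe sets and with quantile normalisation, 2 with all 24 arrays and with array weights, and 0 to 2 when 1 array was left out. The other comparisons kept 0 calls when 1 array was left out. Among the results called in the main fit, 1 turned its sign: the dimmer Esrrb probe set, 0.051 under PM in place of -0.95. Some differences that were not called changed sign between settings. Pparg between genotypes in PBS hearts, for example, ran from -0.24 to 0.20 when 1 array was left out. With the replicate number as a block, Pparg in WT lungs had an adjusted p of 0.0634, so 0 regulators were called there, and Ppard averaged over genotypes passed (1 call); it changed the number called in no other comparison. The planned fit without the 6 lung arrays with skeletal muscle RNA leaves no WT PM lung, so it was run only for PM in dnCREB lungs and for genotype under PBS. In heart, sex class is told from genotype by 1 array only, and 3 arrays a group limit what these fits can show.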
